A study of Mus musculus with 14 samples.

Results

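The nuclear genes of the respiratory chain and ATP synthase were followed in kidney RNA. Members were the genes whose symbols named a complex I subunit (Nduf), a complex II subunit (Sdh), one of 8 complex III subunits (Uqcr), a cytochrome oxidase subunit of families 4 to 8 (Cox) or any Atp5 gene, and that had at least 10 counts in at least 2 libraries. Of 24421 genes in the count table, 84 symbols matched and 81 met the minimum: 36 of complex I, 4 of complex II, 8 of complex III, 16 of complex IV and 17 of ATP synthase. Members were thus chosen by symbol and selected on their counts, so that they were detected is not a result. Just inside it were Cox4i2, with 5 to 29 counts per library, and Cox8b, with 0 to 155. Just outside it were Cox8c, at 0 in every library, Ndufs5, with 1 count in a single library, and Cox7b2, with 1 and 2 counts in a pair of libraries. All 81 members also passed the low-count filter used for testing.

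The RNA came from whole kidneys of male C57BL/6J mice in a series on delivering protein nanocages to the proximal tubule by glomerular filtration. The control group received vehicle (3 libraries, with no time given). After Dps, 3 libraries came from kidneys at 4 h and 3 at 24 h, and after MnDps 3 came from 4 h and 2 from 24 h. Both proteins were given intravenously at 18 mg/kg, the labels expand neither name, and no genotype, age or transgene is labelled. Whether each library is a separate animal is not stated, so a p-value here reflects only how far these libraries vary, which may be technical. Libraries are numbered within a group in the order of deposit, which names them and pairs nothing.

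Oxidative phosphorylation passes electrons from NADH through complex I, or from succinate through complex II, to ubiquinone, then through complex III and cytochrome c to complex IV, which reduces oxygen. The protons pumped by complexes I, III and IV return through ATP synthase, whose F1 head makes ATP while a ring of c subunits turns in the membrane. The proximal tubule, which reabsorbs most of the filtered solute, is rich in mitochondria and depends on this pathway. Most subunits are encoded in the nucleus and a few in mitochondrial DNA. The latter were not analysed here.

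Library totals ran from 15097093 to 42074942 counts, and 3 libraries stood above the rest in depth (Dps 4 h libraries 1 and 2 and control library 3). The 13 proximal tubule marker genes summed to 59600 to 62700 CPM (normalised counts on a common library size) in controls, 52000 to 57200 in Dps 4 h, 64800 to 77200 in MnDps 4 h, 59900 to 73300 in Dps 24 h and 55200 to 62800 in MnDps 24 h. Most of each sum was Kap, an androgen-regulated protein of the proximal tubule, with 36200 to 39000 CPM in controls and 45500 to 58400 in MnDps 4 h. The other 12 genes summed to 22900 to 23600 CPM in controls, 19900 to 21100 in Dps 4 h, 18800 to 19900 in MnDps 4 h, 21500 to 23700 in Dps 24 h and 19900 to 22100 in MnDps 24 h, so that without Kap MnDps 4 h lay below the controls. Of the 13, 4 fell at 4 h after Dps (all genes tested 6.27%). At 4 h after MnDps 8 fell (all genes 22.7%) and only Kap rose (0.45, and 0.09 corrected for transcript length as described below, not called). The part of cell makeup in the members' values was not tested. The 6 endothelial markers summed to 317 to 362 CPM in controls, 195 to 261 in Dps 4 h, 192 to 245 in MnDps 4 h, 370 to 438 in Dps 24 h and 422 to 475 in MnDps 24 h. The 5 neutrophil markers summed to 0.573 to 1.32 CPM in controls, 4.88 to 7.15 in Dps 4 h and 10.2 to 18.1 in MnDps 4 h. In whole-kidney RNA, fewer cells of a type and less RNA per cell cannot be told apart.

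Members carried 2.49 to 2.79% of all counts in the controls. The share was 2.32 to 2.41% in Dps 4 h, 2.93 to 3.32% in MnDps 4 h, 3.04 to 3.19% in Dps 24 h and 2.78 to 2.89% in MnDps 24 h. Dps 4 h therefore lay below every other group, and MnDps 4 h and Dps 24 h lay above the controls without overlap. Levels per kilobase used the transcript marked as principal in the annotation. The highest mean in complex I belonged to Ndufa4 (915 CPM per kb), long counted there and now placed in cytochrome oxidase. In the other complexes it belonged to the iron-sulfur subunit Sdhb (387), the hinge protein Uqcrh (763), Cox4i1 (1200), the common form of subunit 4, and Atp5b (1810), the catalytic beta subunit. At the other end, Cox4i2, the subunit 4 form best known from lung and low oxygen, had 1.0 CPM per kb.

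Transcript length matters for reading these genes. Members have a median longest transcript of 1005 nt against 3288 nt for all 14854 genes tested, and their median GC content of 50.4% is close to the 49.8% of all genes. In each library, the slope of log2 CPM (as a deviation from the gene's mean) on log2 transcript length was 0.036 to 0.136 per doubling of length in controls and 0.097 to 0.127 in Dps 4 h. It was -0.072, -0.102 and -0.209 in MnDps 4 h, -0.036 to -0.081 in Dps 24 h, and -0.024 and -0.002 in MnDps 24 h. Short transcripts thus stood higher, relative to long ones, in MnDps 4 h and Dps 24 h than in controls or Dps 4 h, among genes of every kind. Members were therefore set beside 5151 other tested genes of like length, with a longest transcript of 585 to 2674 nt. That window is wide, and its upper end lies far above the members' median. A narrower bin of 491 tested genes, with a median principal transcript of 884 nt (the 884 nt bin), is therefore also given. Members were not excluded from it, and their own median principal transcript is 861 nt. As counted, its medians lay further from 0 than those of the wide window. Shares called among all genes come from transcripts that are longer at the median. Uncorrected counts set beside those shares are therefore to be read with the medians of genes of like length. Each test was also repeated with each library's trend in length and GC content removed (called corrected from here on).

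**Figure D1:**
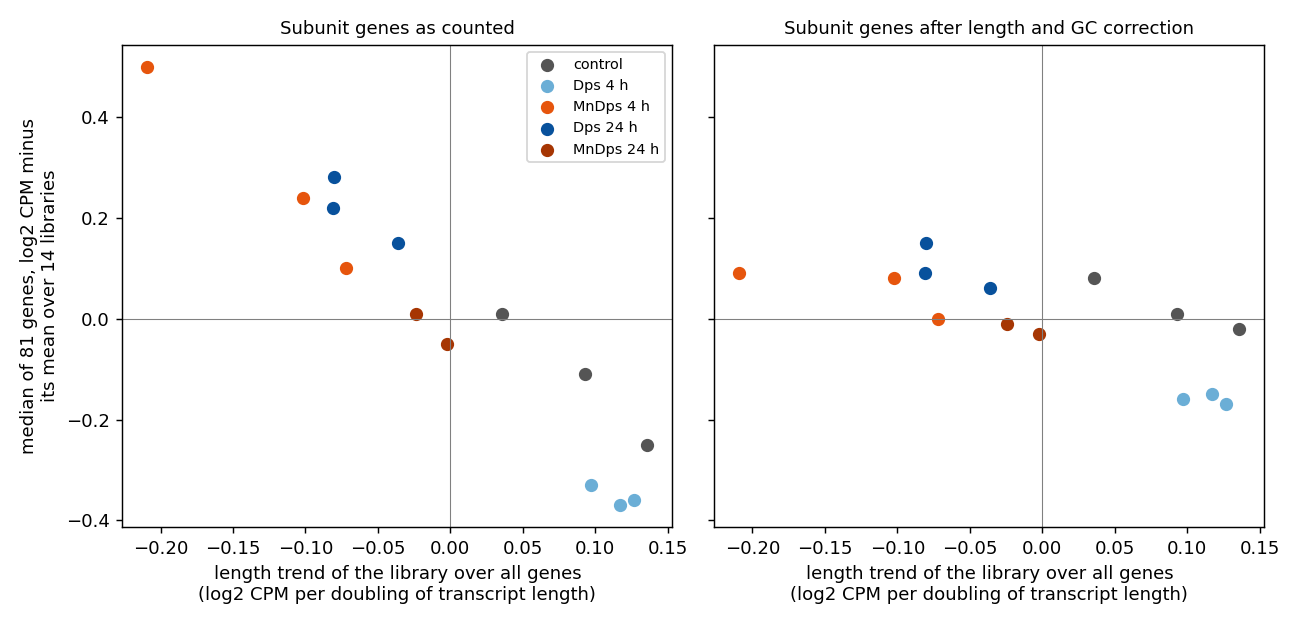
The plot of length trend and member level by library places each of the 14 libraries by its slope of log2 CPM on log2 transcript length over all genes (x axis) and by the 81 members' median deviation in log2 CPM (y axis), as counted on the left and after the length and GC correction on the right. As counted, the median falls as the slope rises. Dps 4 h libraries sit lowest on the corrected median, at -0.17, -0.16 and -0.15.

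After correction, the members' median deviation from their own means was -0.17, -0.16 and -0.15 log2 units in the 3 Dps 4 h libraries. It was -0.02 to 0.08 in controls, 0.00 to 0.09 in MnDps 4 h, 0.06 to 0.15 in Dps 24 h, and -0.01 and -0.03 in MnDps 24 h. The Dps 4 h libraries lay below every other library, while the controls overlapped MnDps 4 h and both 24 h groups.

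At 4 h after Dps, members stood lower than in controls. Of the 81, 17 fell and 0 rose (21.0% lower, against 6.27% lower and 8.33% higher among all genes tested), and 79 of 81 fold changes were below 0. Their median log2 fold change was -0.22, beside -0.02 for all genes, -0.09 for genes of like length and -0.174 for the 884 nt bin. Corrected, 29 fell and 0 rose (all genes 7.65% lower and 10.2% higher), with a median of -0.17 beside -0.05 for genes of like length. When the correction also took in the mean level of each library's trend, 63 fell, at a median of -0.25. Called at an adjusted p under 0.05 by edgeR's quasi-likelihood test, the uncorrected count rests on few libraries: it was 2 without Dps 4 h library 1, Dps 4 h library 3 or control library 2, 3 without control library 1, 5 without Dps 4 h library 2, 8 without MnDps 24 h library 1, and 3 with a term for the 3 deepest libraries (the depth term), at a median of -0.21. The corrected count was 9, 11 and 12 without Dps 4 h libraries 1, 2 and 3, 14 without control library 2 and 18 without MnDps 24 h library 1.

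At 4 h after MnDps, most members stood higher than in controls before the correction and were split after it. Uncorrected, 58 rose and 2 fell (all genes 22.9% higher and 22.7% lower), at a median of 0.41 log2 units. Genes of like length had a median of 0.23, and 38.2% of them were called higher and 6.37% lower. The median of the 884 nt bin was 0.398. Corrected, 19 rose and 12 fell (all genes 19.8% higher and 17.9% lower), at a median of 0.04. With the length of the principal transcript in place of the longest, 13 rose and 13 fell at a median of 0.00. Across the 81 members the Spearman correlation of the fold change with principal transcript length was -0.56, and over 14760 genes -0.48, both across genes, which are not independent replicates.

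MnDps and Dps differed at 4 h over nearly the whole set. Of 81 members, 72 were higher after MnDps and 0 lower (all genes 20.8% higher and 20.7% lower). Their median was 0.68, beside 0.28 for genes of like length and 0.544 for the 884 nt bin. Corrected, 45 were higher and 3 lower (all genes 12.6% higher and 11.6% lower), at a median of 0.24 beside -0.02 for genes of like length. By principal transcript length 38 were higher and 2 lower, at 0.18. Among the 43 members whose longest and principal transcripts have the same length, 20 were higher and 2 lower after correction, at 0.20. The corrected total stayed between 35 and 49 when any single library was left out.

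**Figure D2:**
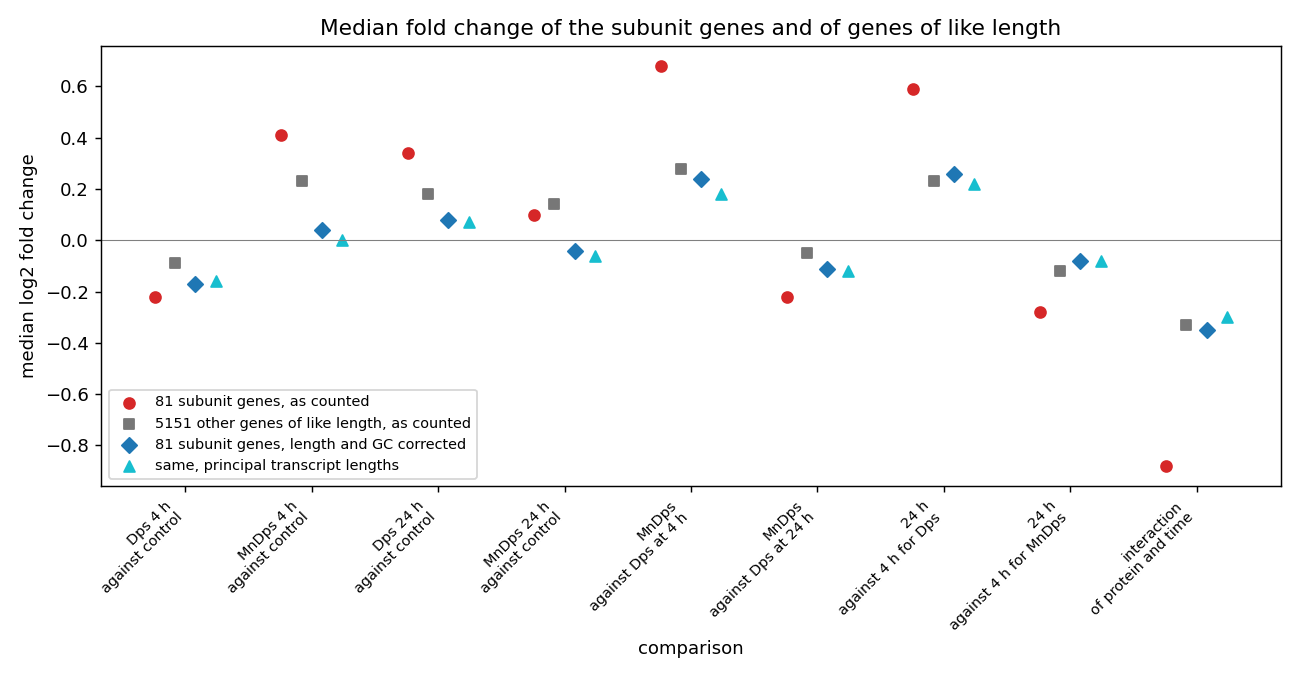
The plot of medians by comparison gives, for each of the 9 comparisons, the median log2 fold change of the 81 members as counted and after the length and GC correction by longest or principal transcript, and of 5151 genes of like length as counted. The corrected medians of members lie nearer 0 than those as counted, and are 0.24 for MnDps against Dps at 4 h and -0.17 for Dps at 4 h against control.

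At 24 h after Dps, 50 members rose and 0 fell against control (all genes 9.64% higher and 10.4% lower). Their median was 0.34, beside 0.18 for genes of like length and 0.34 for the 884 nt bin. Corrected, 12 rose and 0 fell (all genes 4.83% higher and 5.04% lower), at 0.08 beside -0.02. By principal transcript length 6 rose and 1 fell. The uncorrected count was 16 without control library 3, 24 without Dps 24 h library 2 and 27 without Dps 24 h library 1. The corrected count was 3 and 5 without control libraries 3 and 1, and 5 and 4 without Dps 24 h libraries 1 and 2.

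At 24 h after MnDps, few members differed from control. Uncorrected, 4 rose and 2 fell (all genes 4.93% higher and 8.39% lower). Their median over all members was 0.10, beside 0.14 for genes of like length and 0.24 for the 884 nt bin. Corrected, 0 rose and 5 fell (all genes 3.2% higher and 3.57% lower), at -0.04. With only 2 libraries in the group the calls moved: the uncorrected and the corrected count were both 0 without either MnDps 24 h library and both 1 without control library 1 or 3. The uncorrected count was 10 without control library 2. Without MnDps 4 h library 3 the counts were 11 uncorrected and 9 corrected, and without Dps 4 h library 1 or 3 the corrected count was 3. The 4 that rose were Ndufa4l2, Ndufb7, the iron-sulfur subunit Ndufs7 (0.42 ± 0.12, adjusted p = 0.0275; corrected 0.13, not called) and the supercomplex factor Cox7a2l (0.35 ± 0.11, adjusted p = 0.0408; corrected 0.20, not called), and the 2 that fell were Ndufs1 and Sdha.

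Between the proteins at 24 h, 0 members were higher and 2 lower after MnDps (all genes 0.148% higher and 0.666% lower). The members' median was -0.22, beside -0.05 for genes of like length and -0.089 for the 884 nt bin. Corrected, 0 were higher and 1 lower (all genes 0.148% higher and 0.491% lower), at -0.11. The 2 were Ndufb6, an accessory subunit of complex I, and Atp5g3, of the ATP synthase c-ring. Ndufb6 had 176, 156 and 142 CPM in Dps 24 h and 111 and 109 in MnDps 24 h, without overlap (-0.53 ± 0.10, adjusted p = 0.0277; corrected -0.35, adjusted p = 0.0664). Atp5g3 had 1010, 1010 and 949 CPM against 785 and 740 (-0.38 ± 0.08, adjusted p = 0.0407; corrected -0.24, adjusted p = 0.159). The uncorrected count ran from 0 to 22 over the other fits: 13 with DESeq2, 17 with limma voom, 22 with only these groups in the fit, 16 without MnDps 4 h library 3, and 0 without Dps 24 h library 1 or 2 or either MnDps 24 h library. It was 1 without Dps 24 h library 3 or any 1 Dps 4 h library, 4 without control library 2 and 5 without control library 3. The corrected count ran from 0 to 4 when single libraries were left out, with 4 without MnDps 4 h library 3, 2 without MnDps 4 h library 2, 1 without control library 1 and 0 without any other.

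The time course differed between the proteins. From 4 h to 24 h after Dps, 74 members rose and 0 fell (all genes 22.0% higher and 22.6% lower). Their median was 0.59, beside 0.23 for genes of like length and 0.48 for the 884 nt bin. Corrected, 55 rose and 0 fell (all genes 17.1% higher and 18.8% lower), at 0.26 beside 0.01, and 44 to 55 were called when single libraries were left out. From 4 h to 24 h after MnDps, 1 rose and 35 fell (all genes 10.1% higher and 11.7% lower). The members' median was -0.28, beside -0.12 for genes of like length and -0.168 for the 884 nt bin. Corrected, 3 rose and 12 fell (all genes 9.29% higher and 11.2% lower), at -0.08 beside 0.03. The MnDps counts were 6 uncorrected and 1 corrected without MnDps 24 h library 2, 20 and 8 without MnDps 24 h library 1, and 9 uncorrected with only these groups in the fit.

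The test of the difference between the 2 time courses (the 24 h minus 4 h change after MnDps less that after Dps) called 0 members higher and 72 lower (all genes 13.7% higher and 15.7% lower). Their median was -0.88, beside -0.33 for genes of like length and -0.647 for the 884 nt bin. Corrected, 0 were higher and 42 lower (all genes 6.05% higher and 7.91% lower), at -0.35 beside 0.04, and 27 without MnDps 24 h library 2. This contrast uses the same libraries as the 4 h and 24 h comparisons above, so it is the same measurement in another form.

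**Figure D3:**
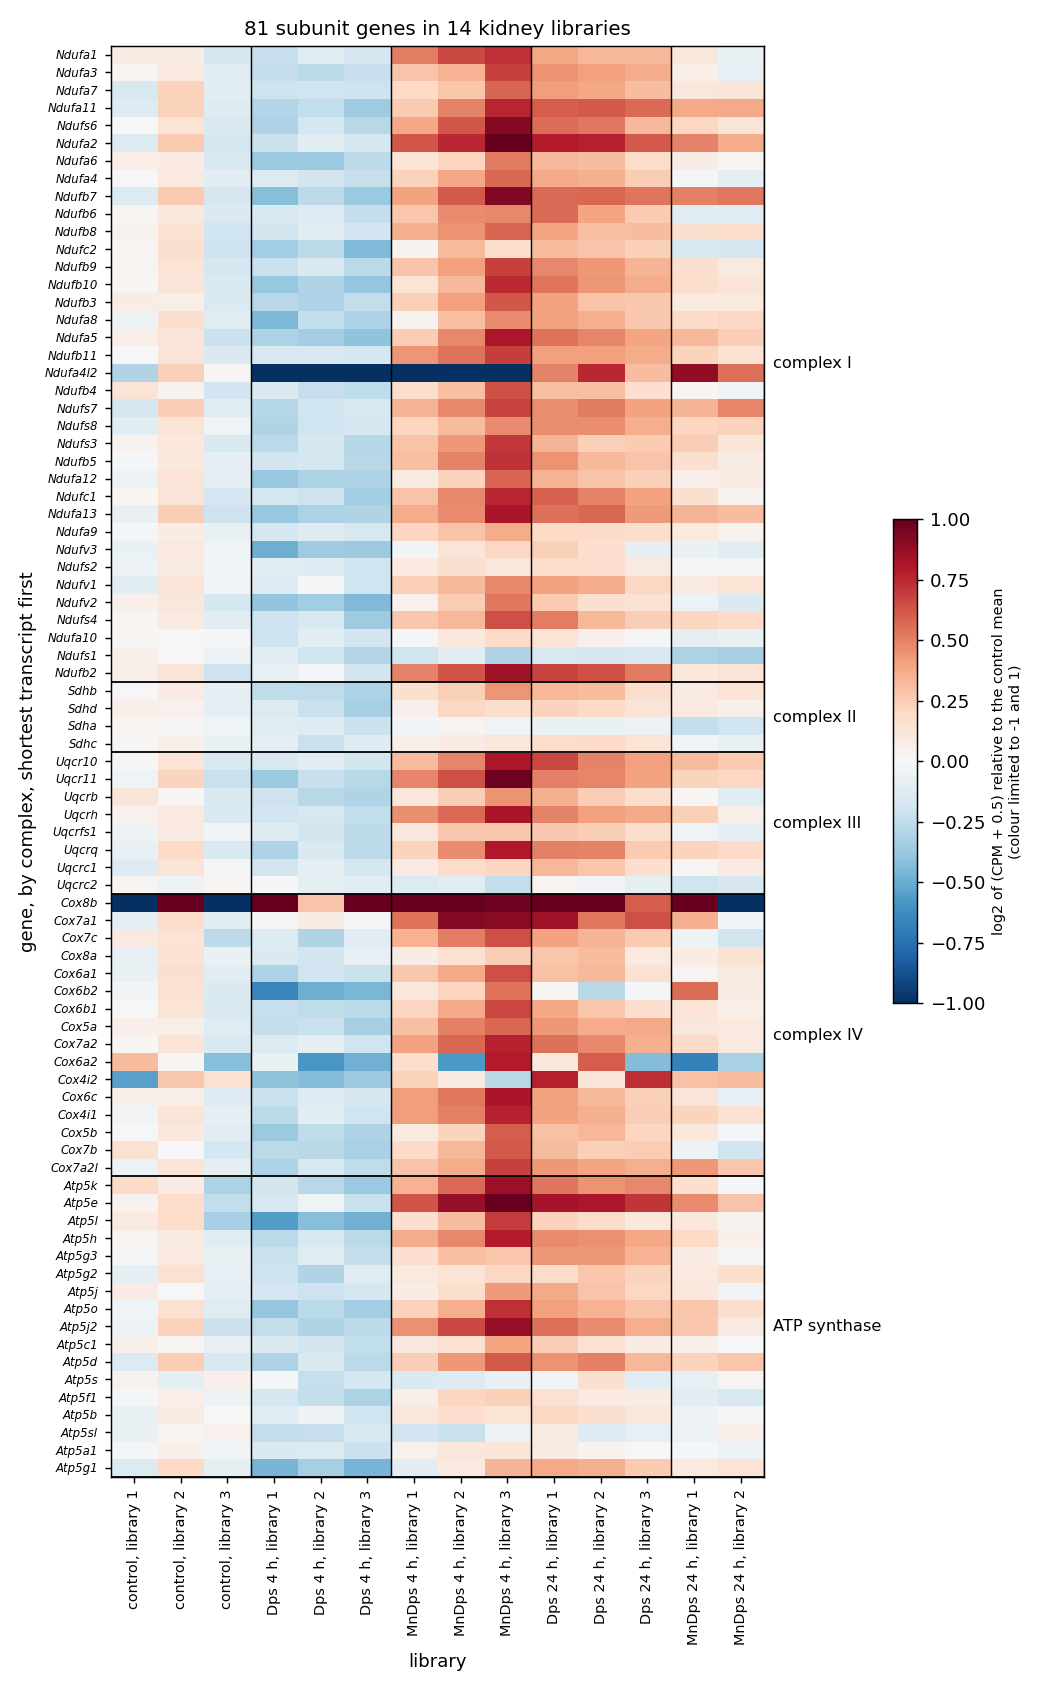
The heat map of members by library shows log2(CPM + 0.5) of each member relative to its control mean, as counted, with libraries in columns, genes in rows by complex and the colour scale limited to -1 and 1. Most rows are low in the 3 Dps 4 h libraries and high in MnDps 4 h and Dps 24 h, and Ndufa4l2 is low in all 6 libraries at 4 h.

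Promoter sequences of the members were searched for motifs of known factors. RefSeq promoters (GRCm38.p6, the build of the counts, 250 bases before to 50 after the start) were matched for 64 of 81 members by symbol. Where several were listed for a gene, the one of lowest coordinate was used. NRF1, a factor known for nuclear genes of mitochondria, has the motif GCGCANGCG, which 19 of 64 members held (29.7%) against 12.3% of 11158 other promoters. The ETS motif CCGGAAG, bound by GABP among others, was in 16 (25%) against 16.3%, and either motif was in 29 (45.3%) against 25.9%. The CREB motif TGACGTCA was in 6.25% against 2.87% and the E-box CACGTG in 7.81% against 9.72%. Both strands were searched, and a match is a description of letters, not of binding. The median fold change at 4 h after MnDps was 0.42 for the 29 members with an NRF1 or ETS motif and 0.44 for the 35 with neither, and after Dps -0.24 and -0.21. Corrected, these medians were -0.02 and 0.09 after MnDps, and -0.18 and -0.17 after Dps.

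The 250 bases before the start follow for 4 genes, chosen as 3 widely expressed subunits with a motif (2 of which are among the largest differences at 4 h) and the heart and muscle form Cox7a1, which holds neither. Capitals mark matches to the NRF1 or ETS motif on either strand, and each is printed 5′ to 3′ on the strand of its gene. The shares above cover 300 bases, so a match that reaches past the start is not shown here. Uqcr11 has such an NRF1 match.
Uqcr11, chr10:80406822-80407071, minus strand, 1 ETS match: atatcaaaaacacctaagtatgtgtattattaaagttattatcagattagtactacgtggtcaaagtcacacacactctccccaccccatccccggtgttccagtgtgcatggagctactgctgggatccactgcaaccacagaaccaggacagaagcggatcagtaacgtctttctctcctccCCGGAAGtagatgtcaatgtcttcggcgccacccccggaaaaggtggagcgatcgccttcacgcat
Atp5e, chr2:174464102-174464351, minus strand, 1 ETS match: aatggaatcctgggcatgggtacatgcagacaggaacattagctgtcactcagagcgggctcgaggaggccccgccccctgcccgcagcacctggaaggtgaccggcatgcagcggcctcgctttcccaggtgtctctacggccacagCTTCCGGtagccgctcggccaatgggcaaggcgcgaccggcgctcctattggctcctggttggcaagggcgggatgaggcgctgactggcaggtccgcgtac
Cox6a1, chr5:115348959-115349208, minus strand, 3 NRF1 matches of which 2 overlap, and 1 ETS match: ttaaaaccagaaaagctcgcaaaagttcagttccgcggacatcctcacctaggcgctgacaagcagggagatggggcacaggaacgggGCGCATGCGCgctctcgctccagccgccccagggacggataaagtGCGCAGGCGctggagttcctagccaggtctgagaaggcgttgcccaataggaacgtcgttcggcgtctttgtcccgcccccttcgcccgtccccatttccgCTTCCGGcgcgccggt
Cox7a1, chr7:30183921-30184170, plus strand, no match: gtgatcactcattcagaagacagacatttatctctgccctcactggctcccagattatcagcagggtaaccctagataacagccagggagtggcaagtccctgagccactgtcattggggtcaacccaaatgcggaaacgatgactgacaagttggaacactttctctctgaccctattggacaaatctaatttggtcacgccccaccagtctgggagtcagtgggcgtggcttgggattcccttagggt

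Complex I, the NADH dehydrogenase, is the largest group of members. Of its 36 members, 34 were higher after MnDps than after Dps at 4 h (23 corrected), and 9 were lower after Dps than in controls (16 corrected). Among all genes tested, 20.8% were higher in the first comparison (12.6% corrected) and 6.27% lower in the second (7.65% corrected). Among the 7 core subunits, which carry the flavin and iron-sulfur centres, 4 were lower in Dps 4 h after correction. The core subunit Ndufs1, which holds several iron-sulfur clusters, differed from most. Its CPM were 405, 391 and 378 in controls, 361, 340 and 320 in Dps 4 h, 341, 361 and 317 in MnDps 4 h, 351, 348 and 352 in Dps 24 h, and 315 and 311 in MnDps 24 h. Every treated library lay below every control. The log2 fold changes were -0.20 ± 0.07 (SE) at 4 h after MnDps (adjusted p = 0.0252; 0.0816 without MnDps 4 h library 3, 0.0609 without control library 1, 0.0563 with the depth term, 0.055 with voom and 0.0861 with only the groups compared) and -0.32 ± 0.08 at 24 h (adjusted p = 0.0157; 0.0971 and 0.0926 without either MnDps 24 h library). For Dps the values were -0.20 ± 0.07 at 4 h (adjusted p = 0.0625; 0.0382 corrected, 0.0233 with DESeq2, 0.0327 with voom and 0.0462 with a stricter count filter) and -0.16 ± 0.07 at 24 h (adjusted p = 0.116). Ndufs1 shares exon sequence with Eef1b2 on the opposite strand, whose fold change at 4 h after MnDps was 0.56.

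Ndufa2 and Ndufb7, small accessory subunits, were among the genes of largest difference between MnDps and Dps at 4 h. Ndufa2 had 124, 163 and 121 CPM in controls, 117, 125 and 120 in Dps 4 h, 209, 229 and 300 in MnDps 4 h, 234, 234 and 209 in Dps 24 h, and 192 and 176 in MnDps 24 h. MnDps 4 h and Dps 24 h lay above all controls, and Dps 4 h overlapped them. Against control Ndufa2 rose by 0.86 ± 0.13 at 4 h after MnDps (adjusted p = 0.000107) and 0.73 ± 0.13 at 24 h after Dps (adjusted p = 0.00299), each 0.40 corrected and still called. It overlaps Tmco6 on the opposite strand, a gene with a mean of 13 CPM.

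Ndufb7 had 111, 146 and 108 CPM in controls, 90.2, 101 and 93.7 in Dps 4 h, 161, 187 and 232 in MnDps 4 h, 180, 182 and 176 in Dps 24 h, and 173 and 175 in MnDps 24 h. The MnDps 4 h and both 24 h groups lay above all controls, and Dps 4 h below them. MnDps exceeded Dps at 4 h by 1.02 ± 0.12 log2 units (adjusted p = 7.12e-05), or 1.17 corrected by its longest transcript (4435 nt) and 0.42 by its principal one (623 nt), called each time. Against control at 24 h after MnDps it rose by 0.52 ± 0.13 (adjusted p = 0.0212), a call lost without either MnDps 24 h library (0.118 and 0.105) and without control library 1 or 3 (0.0807 and 0.0903), with the depth term (0.0559), and corrected by longest (0.0532) or principal transcript (0.0857).

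Ndufb8, an accessory subunit widely used as a marker of assembled complex I, had 306, 329 and 260 CPM in controls and 382, 407 and 446 in MnDps 4 h, without overlap. It rose by 0.46 ± 0.08 (adjusted p = 0.000467), 0.27 corrected by longest transcript and -0.01 by principal transcript. Ndufv3, a subunit of the flavoprotein part, had 168, 188 and 171 CPM in controls and 125, 137 and 136 in Dps 4 h, all lower. It fell by 0.40 ± 0.09 log2 units (adjusted p = 0.00613; corrected -0.38, adjusted p = 0.00155), a call that held when any library was left out. The highest transcript per kilobase, Ndufa4, had 512, 546 and 474 CPM in controls, 463, 447 and 435 in Dps 4 h and 600, 668 and 760 in MnDps 4 h. The 3 groups did not overlap, and only the rise after MnDps was called (0.41 ± 0.09, adjusted p = 0.00128; 0.19 corrected, 0.02 by principal transcript).

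Ndufa4l2, a paralogue of Ndufa4 that is induced by hypoxia-inducible factor in many cells, moved most of all called members. It had 3.29, 4.99 and 4.20 CPM in controls, 0.779, 1.14 and 1.25 in Dps 4 h, 1.22, 1.59 and 1.78 in MnDps 4 h, 6.08, 7.35 and 5.26 in Dps 24 h, and 8.13 and 6.31 in MnDps 24 h. Every 4 h library lay below every control, and every 24 h library above every control. The log2 fold change was -2.01 ± 0.23 at 4 h after Dps (adjusted p = 1.23e-05) and -1.44 ± 0.23 after MnDps (adjusted p = 0.000173). Corrected, the values were -1.94 and -1.89, and both calls held when any library was left out. From 4 h to 24 h it rose by 2.60 ± 0.23 after Dps (adjusted p = 5.23e-07) and 2.23 ± 0.24 after MnDps (adjusted p = 1.04e-05). The 24 h rise over control after MnDps, 0.79 ± 0.23, was called (adjusted p = 0.0322) but not when corrected (0.49), nor without either MnDps 24 h library (0.26 and 0.0647), control library 1 (0.10) or control library 3 (0.0912), nor with the depth term (0.0889).

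The sums of endothelial markers and of macrophage markers moved in the same libraries as Ndufa4l2. Of the 6 endothelial markers, 4 fell and 1 rose at 4 h after Dps (all genes 6.27% lower and 8.33% higher). After MnDps 4 fell (all genes 22.7%). Plvap, of capillary diaphragms, changed by -1.13 ± 0.16 log2 units after Dps and -0.95 ± 0.16 after MnDps, and the angiopoietin receptor Tek by -1.10 ± 0.15 and -1.50 ± 0.16. Cdh5, a junction protein, rose by 0.74 after Dps, and Pecam1 was not called in either (0.13 and -0.05). The summed level of the 6, given above, was lower in all 4 h libraries than in controls. The 5 macrophage markers summed to 107 to 128 CPM in controls. In Dps 4 h they summed to 87.2 to 97.4, and in MnDps 4 h to 85.7 to 93.8. The endothelial and macrophage sums were above the controls in all 24 h libraries. The 5 pericyte and smooth muscle markers summed to 144 to 155 CPM in controls. At 4 h they overlapped the controls, with 138 to 189 after Dps and 133 to 178 after MnDps. At 24 h they lay above them, with 172 to 191 after Dps and 161 to 174 after MnDps. The part of any of these lists in the Ndufa4l2 result was not tested. Ndufa4l2 also overlaps Shmt2 on the opposite strand (288 CPM), which changed by -0.31 and -0.28, and whether the counting used strand is not stated in the labels or notes.

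**Figure D4:**
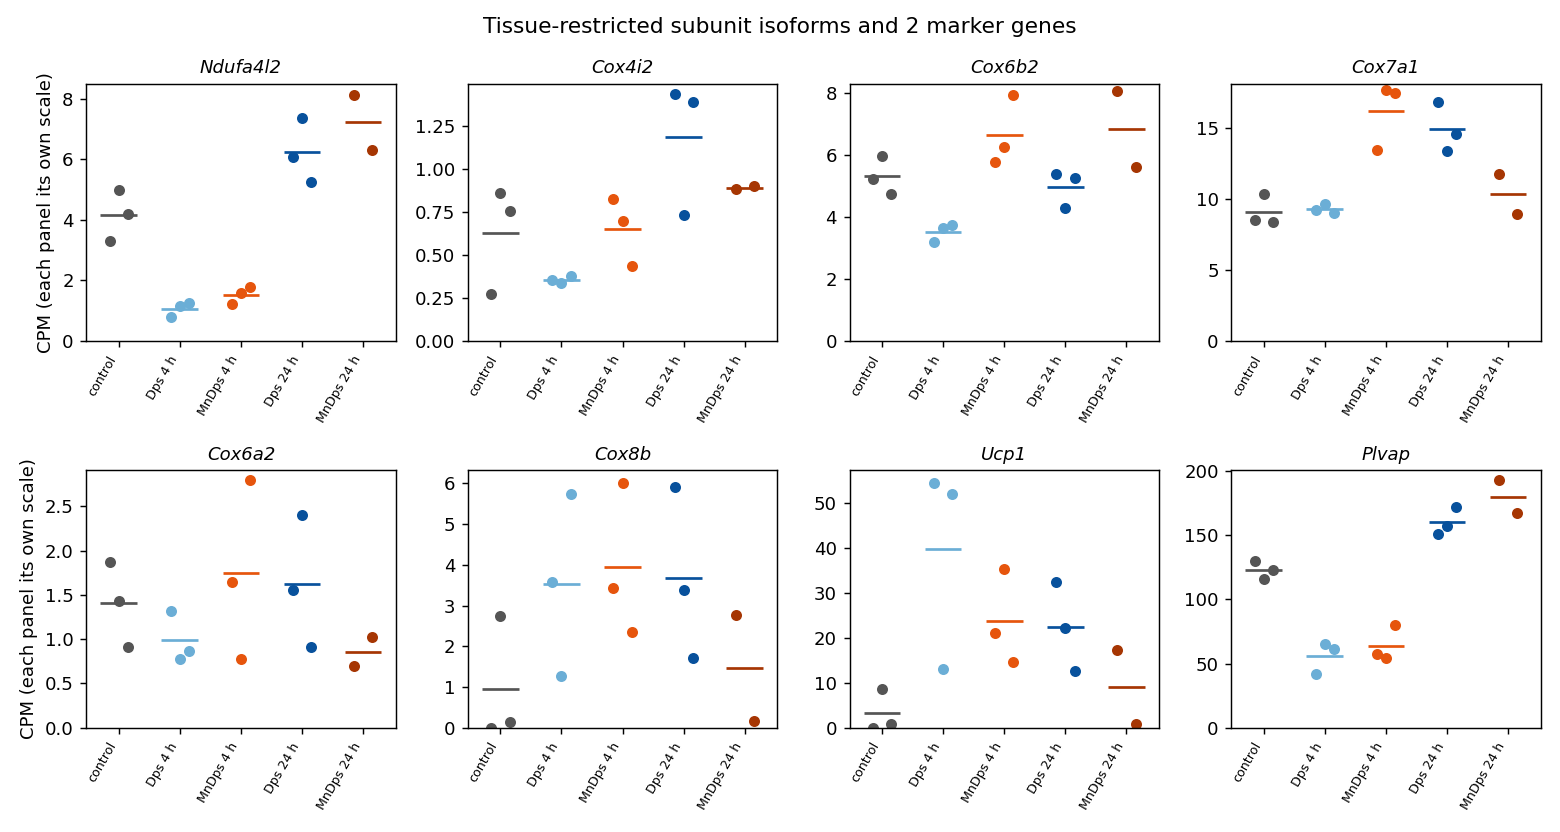
The plot of isoforms gives CPM in each of the 14 libraries (points, with bars at group means, each panel on its own linear scale from 0) for 6 subunit forms typical of other tissues or of low oxygen and for the marker genes Ucp1 and Plvap. Ndufa4l2 is low in all 6 libraries at 4 h, and Cox8b spreads from 0 to 6.02 CPM within groups. Plvap is an endothelial marker, and another, Cdh5, not shown, rose at 4 h after Dps.

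In complex II, succinate dehydrogenase, 3 of 4 members were higher after MnDps than after Dps at 4 h and 1 remained so corrected. The share higher among all genes tested was 20.8%, and 12.6% corrected. Sdhb had 414, 438 and 390 CPM in controls, 347, 346 and 335 in Dps 4 h and 462, 488 and 561 in MnDps 4 h, with no overlap between the 3 groups. It fell by 0.27 ± 0.08 log2 units after Dps (adjusted p = 0.0299; corrected -0.23, adjusted p = 0.00559). It rose by 0.28 ± 0.08 after MnDps (adjusted p = 0.00897; corrected -0.11, adjusted p = 0.113). The uncorrected Dps call was lost without any of 6 libraries (Dps 4 h 1, 2 or 3, control 1 or 2, or MnDps 24 h 1; adjusted p 0.0517 to 0.13), with the depth term (0.0752) and with no count filter (0.0529), and the MnDps call without MnDps 4 h library 3 (0.0515) or control library 3 (0.0505). The flavoprotein Sdha had 1020, 1010 and 969 CPM in controls and 847 and 869 in MnDps 24 h, a change of -0.22 ± 0.07. Its adjusted p was 0.0483 with all libraries and 0.0504 to 0.232 without any 1 of 12 libraries (all but MnDps 4 h libraries 1 and 3). The call was also lost with the depth term (0.10), without a count filter (0.0701), by median-of-ratios scaling (0.0547) and with only the groups compared (0.124). Corrected, it was called by longest transcript (-0.22) and not by principal transcript (-0.18, adjusted p = 0.0691).

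In complex III, the cytochrome bc1 complex, 7 of 8 members were higher after MnDps than after Dps at 4 h (4 higher and 1 lower corrected). Of all genes tested, 20.8% were higher (12.6% higher and 11.6% lower corrected). Uqcr11, its smallest subunit, had 201, 240 and 177 CPM in controls, 159, 175 and 170 in Dps 4 h, 289, 322 and 405 in MnDps 4 h, 292, 290 and 273 in Dps 24 h, and 240 and 238 in MnDps 24 h. Dps 4 h lay below the controls and MnDps 4 h and Dps 24 h above them. Uqcr11 rose by 0.72 ± 0.12 at 4 h after MnDps (adjusted p = 0.00018), and 0.23 corrected was also called. The difference of MnDps from Dps at 4 h was 1.01 ± 0.12 (adjusted p = 7.12e-05), 0.45 corrected.

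Uqcrc2, a core protein of complex III, had no rise at 4 h after MnDps. It had 557, 529 and 557 CPM in controls, 539, 516 and 508 in Dps 4 h, and 498, 507 and 461 in MnDps 4 h, the last below all controls. Its fold change after MnDps was -0.16 ± 0.07 and not called (adjusted p = 0.0532, and 0.0303 to 0.0465 without any 1 of 5 libraries: control 2, MnDps 4 h 2, or Dps 24 h 1, 2 or 3). It was called with DESeq2 (0.019) and with the stricter filter (0.0292). Corrected it was -0.37 (adjusted p = 0.000818).

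In complex IV, 13 of 16 members were higher after MnDps than after Dps at 4 h (8 higher and 1 lower corrected). Of all genes tested, 20.8% were higher (12.6% higher and 11.6% lower corrected). Cox4i1 had 771, 866 and 740 CPM in controls, 659, 738 and 692 in Dps 4 h and 1060, 1120 and 1350 in MnDps 4 h, with no overlap. It rose by 0.57 ± 0.09 after MnDps (adjusted p = 0.000187; corrected 0.10, adjusted p = 0.163). Cox5b, a zinc-binding subunit, had 331, 357 and 308 CPM in controls, 256, 279 and 269 in Dps 4 h and 355, 388 and 504 in MnDps 4 h. It was lower than all controls after Dps (-0.31 ± 0.10, adjusted p = 0.0594; corrected -0.24, adjusted p = 0.011). After MnDps its libraries overlapped the controls (0.33 ± 0.10, adjusted p = 0.0188; corrected -0.10). The latter call was lost without MnDps 4 h library 3 (0.139), control library 1 (0.0581) or control library 3 (0.087), and with only the groups compared (0.078). The former was called without MnDps 4 h library 1 (0.0302) or 3 (0.011), with DESeq2 (0.0417), with voom (0.0308) and with only the groups compared (0.0303).

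The subunit forms typical of heart, muscle, testis or low oxygen were present at low levels. Cox7a1, the heart and skeletal muscle form of subunit 7a, had 8.56, 10.4 and 8.40 CPM in controls, 9.21, 9.64 and 9.0 in Dps 4 h, 13.5, 17.7 and 17.5 in MnDps 4 h, 16.9, 13.4 and 14.6 in Dps 24 h, and 11.8 and 8.93 in MnDps 24 h. MnDps 4 h and Dps 24 h lay above all controls. It rose by 0.84 ± 0.14 at 4 h after MnDps (adjusted p = 0.000259; corrected 0.38, adjusted p = 0.0279) and by 0.72 ± 0.14 at 24 h after Dps (adjusted p = 0.00469; corrected 0.34, adjusted p = 0.102). The 5 striated muscle markers summed to 4.94 to 9.34 CPM in controls, 4.47 to 4.99 in Dps 4 h, 5.3 to 11.4 in MnDps 4 h, 8.59 to 12.1 in Dps 24 h and 8.03 to 9.46 in MnDps 24 h. Within that list the defining Ckm and Acta1 did not exceed 0.0819 and 0.13 CPM in any library, and none of the list was called against control.

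Cox6b2, the testis form of subunit 6b, had 5.22, 5.96 and 4.76 CPM in controls and 3.19, 3.65 and 3.74 in Dps 4 h, all lower. The change was -0.59 ± 0.18 (adjusted p = 0.0352; corrected -0.54, adjusted p = 0.0257), and the uncorrected call was lost without any 1 of 5 libraries (Dps 4 h 1, 2 or 3, control 1 or 2; adjusted p 0.0628 to 0.147) and with the depth term (0.0933). Cox4i2 had 0.274, 0.86 and 0.754 CPM in controls, 0.354, 0.338 and 0.38 in Dps 4 h and 1.44, 0.735 and 1.39 in Dps 24 h. It rose between the 2 times after Dps by 1.73 ± 0.39 (adjusted p = 0.00207; corrected 1.30, adjusted p = 0.0204). Cox6a2, another heart and muscle form, had 0.694 to 2.80 CPM and was called in no comparison.

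Cox8b, a form of subunit 8 known from heart, muscle and brown fat, had 0, 2.75 and 0.135 CPM in controls, 3.59, 1.28 and 5.75 in Dps 4 h, 3.43, 6.02 and 2.36 in MnDps 4 h, 5.92, 3.38 and 1.72 in Dps 24 h, and 2.77 and 0.164 in MnDps 24 h. The groups overlapped, and it was not called against control (2.04 ± 1.17 at 4 h after Dps, adjusted p = 0.277; 2.27 ± 1.17 after MnDps, adjusted p = 0.139, with 5.39, adjusted p = 0.0151, without control library 2 and 4.52, adjusted p = 0.0194, by voom). Ucp1, the thermogenic protein of brown fat, had 0, 8.66 and 0.834 CPM in controls, 54.6, 13 and 52.0 in Dps 4 h, 21.0, 35.3 and 14.7 in MnDps 4 h, 32.4, 22.3 and 12.6 in Dps 24 h, and 17.4 and 0.86 in MnDps 24 h. Both genes were lowest in control library 1 and higher in control library 2 than in the other controls. The 8 adipocyte markers summed to 43.1 to 92.9 CPM in controls, 166 to 192 in Dps 4 h, 117 to 215 in MnDps 4 h, 116 to 211 in Dps 24 h and 54.8 to 166 in MnDps 24 h, and their part in the Cox8b values was not tested.

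For ATP synthase, 15 of 17 members were higher after MnDps than after Dps at 4 h (9 higher and 1 lower corrected). Of all genes tested, 20.8% were higher (12.6% higher and 11.6% lower corrected). The 2 members not called as counted were Atp5s and Atp5sl (0.02 and 0.06). They match the symbol pattern and encode factor B and a protein known from complex I assembly. Atp5e, the epsilon subunit of the central stalk, had the largest difference: 194, 215 and 160 CPM in controls, 170, 184 and 163 in Dps 4 h, 293, 347 and 441 in MnDps 4 h, 336, 332 and 311 in Dps 24 h, and 263 and 231 in MnDps 24 h. All groups but Dps 4 h lay above every control. It rose by 0.93 ± 0.13 at 4 h after MnDps (adjusted p = 6.43e-05) and 0.78 ± 0.13 at 24 h after Dps (adjusted p = 0.00239). Corrected by longest transcript these were 0.63 and 0.60, by principal transcript 0.45 and 0.41, and all 4 were called. MnDps exceeded Dps at 4 h by 1.06 ± 0.13 (adjusted p = 7.12e-05). Atp5b, the catalytic beta subunit and the highest transcript of all members per kilobase, had 3220, 3540 and 3350 CPM in controls and 3630, 3780 and 3710 in MnDps 4 h, without overlap, and was not called (0.14 ± 0.07, adjusted p = 0.105).

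The c-ring is encoded by 3 genes, Atp5g1, Atp5g2 and Atp5g3, whose mature proteins are identical. Atp5g1 had 223, 284 and 232 CPM in controls, 178, 196 and 179 in Dps 4 h, and 227, 263 and 312 in MnDps 4 h. It was below all controls after Dps (-0.42 ± 0.11, adjusted p = 0.0138; corrected -0.43, adjusted p = 0.0417 by longest and 0.0501 by principal transcript) and overlapped them after MnDps (0.12 ± 0.11). The Dps call was lost without Dps 4 h library 1 (0.066) or 3 (0.0679) or control library 2 (0.0661). Atp5g3, the most abundant, had 734, 796 and 707 CPM in controls, 839, 919 and 906 in MnDps 4 h, 1010, 1010 and 949 in Dps 24 h, and 785 and 740 in MnDps 24 h. It rose by 0.25 ± 0.07 at 4 h after MnDps (adjusted p = 0.00878; corrected -0.16) and by 0.41 ± 0.07 at 24 h after Dps (adjusted p = 0.00275; corrected 0.12). Atp5g2 had 53.9, 63.8 and 54.1 CPM in controls and 61.4, 63.1 and 66.1 in MnDps 4 h, which overlapped (0.15 ± 0.08, adjusted p = 0.128, and 0.22, adjusted p = 0.0357, without control library 2; corrected -0.33, adjusted p = 0.0033). Differences between the c-ring genes were not tested.

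Atp5l, the g subunit of the membrane part, shows how far a value can depend on the transcript chosen. It had 74.9, 79.3 and 55.6 CPM in controls, 47.4, 52.1 and 50.1 in Dps 4 h, and 78.4, 86.8 and 114 in MnDps 4 h. Dps 4 h lay below all controls, and MnDps 4 h overlapped them. Its longest transcript has 6310 nt and its principal one 544 nt. At 4 h after MnDps the fold change was 0.41 ± 0.13 (adjusted p = 0.0179), 0.91 corrected by the longest and -0.02 by the principal transcript, and the uncorrected call was lost without MnDps 4 h library 3 (0.24, adjusted p = 0.117) or control library 3 (0.27, adjusted p = 0.0987). At 4 h after Dps it was -0.48 ± 0.13 (adjusted p = 0.0218). Corrected by the longest transcript it was -0.45 and no longer called (adjusted p = 0.171), and by the principal one -0.40 and called. The uncorrected call was lost without any 1 of 5 libraries (Dps 4 h 1, 2 or 3, control 1 or 2; adjusted p 0.0538 to 0.1) and with the depth term (0.0764). The longest transcript was over 2 times the principal one for 9 members.

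**Figure D5:**
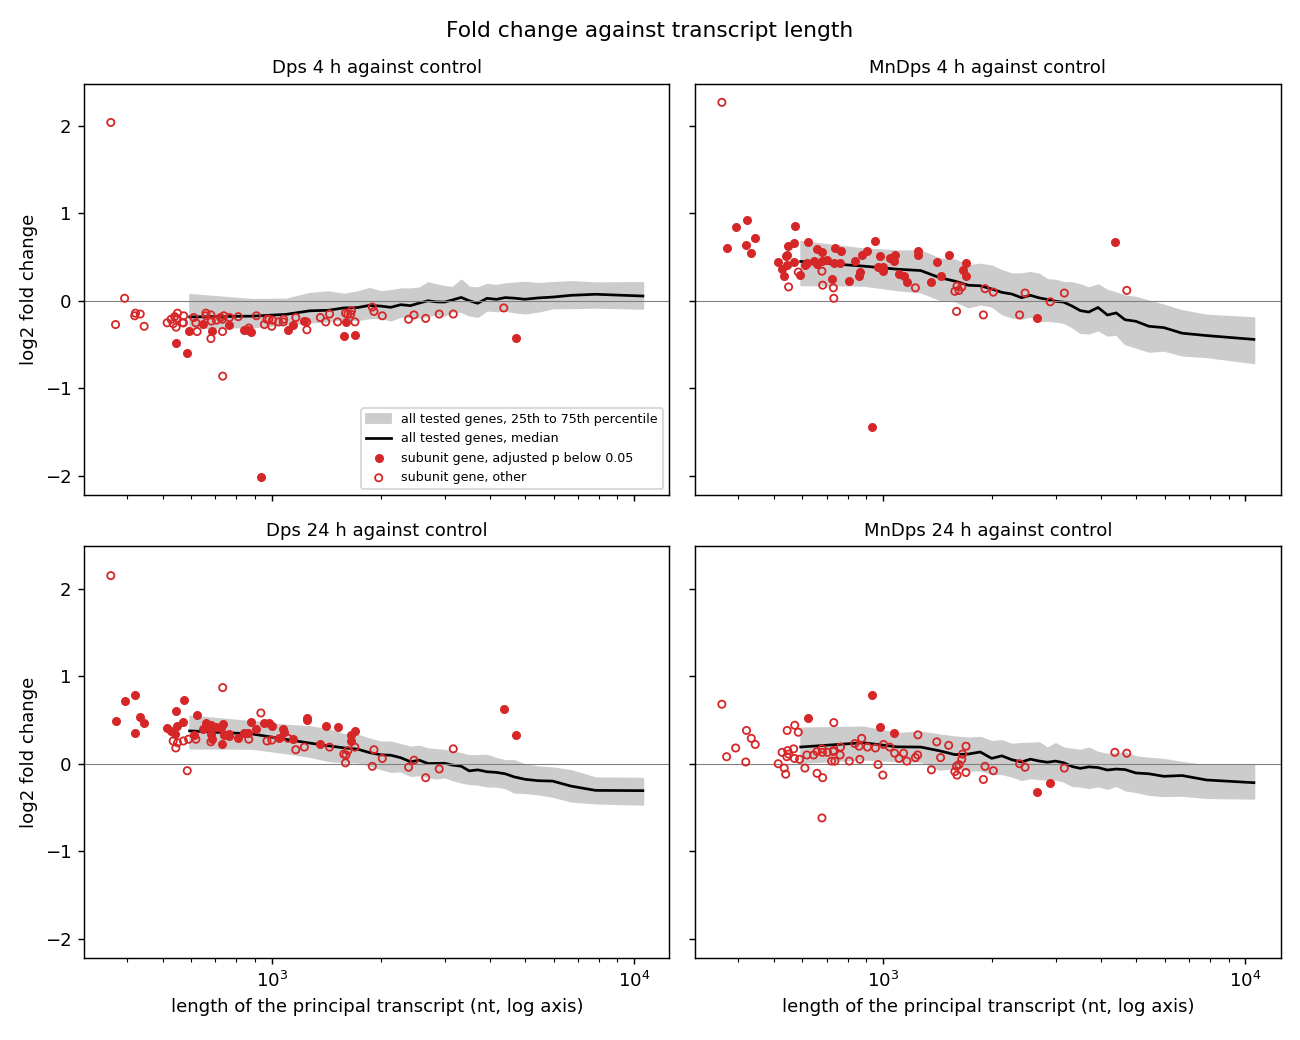
The plot of fold change by transcript length places each of the 81 members by principal transcript length (log axis) and log2 fold change as counted, in 4 panels for the comparisons with control. The line and band are the median and quartiles of all tested genes in bins of length, and filled points were called. For MnDps at 4 h the members follow the falling trend of all genes (Spearman -0.56 for members, -0.48 for all), and for Dps at 4 h most lie below 0.

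Genes around the pathway were counted in the same way, beside the shares of all tested genes: 8.33% higher and 6.27% lower at 4 h after Dps, and 22.9% higher and 22.7% lower at 4 h after MnDps. Of 12 regulators of mitochondrial gene expression, 1 rose and 0 fell at 4 h after Dps, and 1 rose (8.33%) and 4 fell (33.3%) after MnDps. In a list of 12, 1 gene is 8.33%, so these counts are not read as a result about the list. The coactivator Ppargc1a had 85.9, 74.9 and 96.0 CPM in controls, 69.8, 71.0 and 73.9 in Dps 4 h, 52.4, 51.5 and 35.5 in MnDps 4 h, 52.6, 57.2 and 59.5 in Dps 24 h, and 66.6 and 53.7 in MnDps 24 h. All treated libraries lay below the controls. It fell by 0.88 ± 0.13 log2 units at 4 h after MnDps (adjusted p = 0.000109), 0.60 ± 0.13 at 24 h after Dps (adjusted p = 0.00688) and 0.52 ± 0.15 at 24 h after MnDps (adjusted p = 0.0322), while the members' medians were 0.41, 0.34 and 0.10. Corrected, Ppargc1a was at -0.46, -0.33 and -0.19, the last not called, and the members' medians were 0.04, 0.08 and -0.04. Gabpa, the DNA-binding subunit of GABP, changed by -0.78 ± 0.12 at 4 h and -0.65 ± 0.13 at 24 h after MnDps, and by -0.41 ± 0.12 at 24 h after Dps, all called. Corrected, Gabpa was at -0.46 and -0.35, both called, and at -0.20, not called. It overlaps the member Atp5j on the opposite strand. The related coactivator Pprc1 rose by 0.57 ± 0.14 at 4 h after Dps. Nrf1, Esrra and Tfam were called in no comparison with control (-0.19 to 0.27), but corrected, Nrf1 (0.29) and Tfam (0.35) were called higher at 4 h after MnDps.

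Of 48 tested assembly factors, 0 rose and 6 fell (12.5%) at 4 h after Dps, 25 rose (52.1%) and 3 fell (6.25%) after MnDps (9 and 8 corrected), and 29 were higher (60.4%, all genes 20.8%) and 1 lower after MnDps than after Dps (18 and 3 corrected). Corrected, the MnDps counts against control are near the shares of all genes (19.8% higher and 17.9% lower). The copper chaperones of cytochrome oxidase Sco2 and Cox17 rose at 4 h after MnDps by 1.03 ± 0.19 (adjusted p = 0.000461; corrected 0.62, called) and 0.75 ± 0.12 (adjusted p = 0.000157; corrected 0.82, called). The heme A synthase Cox15 fell by 0.55 ± 0.10 log2 units (adjusted p = 0.000391; corrected -0.36, called). Among 10 subunits and electron carriers outside the rule, 6 rose and 0 fell at 4 h after MnDps, and 2 fell after Dps.

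The 18 genes of the TCA cycle and pyruvate dehydrogenase, which feed the chain, were counted likewise. At 4 h after MnDps 2 rose (11.1%) and 6 fell (33.3%), or 1 and 9 corrected, and the same caution holds for 18 genes. The largest falls were in Ogdh, of the 2-oxoglutarate dehydrogenase, at -0.46 ± 0.07 (adjusted p = 0.000197) and Dlat, the acetyltransferase of pyruvate dehydrogenase, at -0.40 ± 0.08 (adjusted p = 0.000618). At 24 h after MnDps 0 rose and 7 fell (38.9%, all genes 8.39%; 6 corrected), led by Dlat at -0.52 ± 0.09 (adjusted p = 0.00234), Dld at -0.48 ± 0.09 (adjusted p = 0.00396) and Idh3a at -0.43 ± 0.09 (adjusted p = 0.00823). At 4 h after Dps 2 fell and 0 rose. Of 6 adenine nucleotide, phosphate and outer membrane carriers, 2 fell at 4 h after Dps, with the adenine nucleotide carrier Slc25a4 at -0.39 ± 0.08 (adjusted p = 0.00361; corrected -0.37, called).

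Ribosomal protein genes, another set of mostly short transcripts, were set beside them. Their medians at 4 h after Dps were -0.21 for 94 cytosolic and -0.20 for 77 mitochondrial ribosomal protein genes, beside -0.22 for the respiratory members. Corrected medians of the ribosomal sets are not given here for Dps at 4 h. For MnDps against Dps at 4 h their medians were 0.76 and 0.55 (0.30 and 0.29 corrected), beside 0.68 (0.24 corrected) for the respiratory members. No difference between these sets was tested.

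Sequence shared with other genes limits some values. Of the 81 members, 29 overlap an exon of another gene, 24 with that gene in the count table. Words of 75 bases shared with another gene's transcript made up over 20% of the longest transcript for Ndufb4 (35.2%), Ndufs3 (27.1%), Cox7c (25%) and Ndufb9 (20.3%), and reads there could be split or dropped depending on how multiply mapped reads were counted, a setting not stated in the labels or notes. Ndufs5, which fell below the count minimum, shares 24.1% of its words with BC002163.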

How the data were processed

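Kidney RNA was sequenced as stranded mRNA libraries, and the authors deposited whole-number counts per gene. Per the submitters' processing notes these came from STAR and featureCounts on mm10. Tool versions, the annotation, and settings for strand and multimapping were not given in the sources used here. Samples were grouped by their labels. Of 24421 genes, 14854 passed filterByExpr and were fitted over all 14 libraries (15097093 to 42074942 counts each) with edgeR 4.0.16 in R 4.3.3: TMM factors, the robust quasi-likelihood test, a mean per group, 9 contrasts, 9 residual degrees of freedom, and Benjamini-Hochberg adjustment over all genes. A gene was called, and is said to have risen or fallen, at an adjusted p under 0.05. Errors after ± are SE, and CPM are counts over TMM-scaled library totals.

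The correction entered as an offset each library's trend in log2 transcript length and GC content (splines of 4 degrees of freedom each, centred at a median of 0), for the longest GENCODE M21 transcript, known for 99.4% of tested genes. In simulated data, all MnDps 4 h libraries were given the same trend in longest-transcript length and no other change. Of the members, 61.7% were then called uncorrected and 0.0% with the offset. The offset was built on that same length, so this outcome was fixed in advance. It cannot show how the offset performs where another transcript is expressed or where slopes differ between libraries of a group. In a simulated Dps 4 h comparison, 76.0% of 50 genes changed 1.5-fold were called, and 10.0% of 50 changed 1.25-fold. Those genes were drawn at random from all genes tested, with no length trend in that group, so the rates are not those of the members. Alternatives were DESeq2 1.42.0, limma 3.58.1 voom, other filters and size factors, fewer groups, a depth term and single libraries left out. Principal transcripts, the trend's mean level and leave-one-out of the corrected fit were added after seeing the data.

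Members and lists were chosen with earlier results of these data known. Genes were named by rule: called members of largest change without overlap between groups, members called after correction, the highest per kilobase in each complex, fixed subunits and isoforms, and the leading called genes and fixed regulators of pathway lists. A few more were named after their values were seen (Ucp1 and the endothelial markers among them).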

Additional observations from a re-analysis of the deposited data

Results flagged for a closer look

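Several results differed between the proteins, or between their time courses, by a test of that difference (edgeR, adjusted over all genes). Of 81 members, 72 differed between MnDps and Dps at 4 h, 2 differed at 24 h, and 72 differed in the change from 4 h to 24 h. Among all genes tested, 20.8% were higher and 20.7% lower at 4 h, 0.148% and 0.666% at 24 h, and 13.7% and 15.7% in the change over time. Corrected for transcript length and GC content, 48, 1 and 42 members differed. At 4 h the difference, MnDps minus Dps on the log2 scale, was 1.06 for Atp5e, 1.03 for Ndufa2, 1.02 for Ndufb7 and 1.01 for Uqcr11. At 24 h it was -0.53 for Ndufb6 and -0.38 for Atp5g3.

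For the change over time, the MnDps value less the Dps value was -1.34 for Cox7a1, -0.90 for Cox4i1, -0.87 for Cox5b, -0.82 for Atp5g3, -0.79 for Ndufb8, -0.76 for Atp5g1, -0.72 for Sdhb, and -0.45 for both Atp5b and Atp5g2. These values are as counted. Corrected, Cox7a1 (-0.68), Cox4i1 (-0.26), Ndufb8 (-0.49) and Atp5g1 (-0.98) were still called, and Cox5b (-0.23), Atp5g3 (-0.20), Sdhb (-0.20), Atp5b (-0.12) and Atp5g2 (0.24) were not.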

How the results depend on the processing

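The length and GC correction by longest transcript moved 6 counts of called members by over 1.5 times, and other settings moved some counts further. With that offset they were 29 for Dps at 4 h, 31 for MnDps at 4 h, 12 for Dps at 24 h, 1 for MnDps against Dps at 24 h, 15 for the MnDps time course and 42 for the difference of time courses, against 17, 60, 50, 2, 36 and 72 without it. By principal transcript they were 31, 26, 7, 0, 15 and 40, and 40 for MnDps against Dps at 4 h (72). With the trend's mean level included, the first 3 and the MnDps time course gave 63, 33, 12 and 14. For Dps at 4 h DESeq2 gave 28, a depth term 3 and no count filter 10. For MnDps at 24 h (6) the depth term gave 1, voom 11 and a fit of only the groups compared 3. For MnDps against Dps at 24 h (2) DESeq2 gave 13, the depth term 1, voom 17, no filter 4 and only those groups 22. The MnDps time course gave 9 with only those groups. Median-of-ratios size factors and the stricter filter moved no count by over 1.5 times.

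Leaving out single libraries gave 2 to 25 for Dps at 4 h, 47 to 63 for MnDps at 4 h, 16 to 62 for Dps at 24 h, 0 to 11 for MnDps at 24 h, 71 to 73 for MnDps against Dps at 4 h and 0 to 16 at 24 h, 71 to 74 and 6 to 46 for the Dps and MnDps time courses, and 70 to 72 for their difference. Where this left 1 library in MnDps at 24 h, it was taken to vary like the other groups.

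Between the fit as counted and the correction by longest transcript, the sign of the fold change differed for 0 of 81 members for Dps at 4 h, 31 for MnDps at 4 h, 23 for Dps at 24 h and 34 for MnDps at 24 h. Among named genes called in at least one of the fits, the reversals were all under a length correction. In the order longest transcript, mean level included and principal transcript, values at 4 h after MnDps were -0.33, -0.38 and -0.32 for Atp5g2, -0.11, -0.16 and -0.12 for Sdhb, -0.10, -0.15 and -0.09 for Cox5b, and -0.16, -0.21 and -0.17 for Atp5g3. By principal transcript alone Atp5l was at -0.02 and Ndufb8 at -0.01, and with the mean level alone Atp5b was at -0.17. For MnDps against Dps at 4 h Cox8a was at -0.24, -0.21 and -0.28 and Atp5g2 at -0.23, -0.19 and -0.18. Cox6a1 at 24 h after MnDps was at -0.24, -0.29 and -0.24. The causes of the other changes were not tested. No paired analysis was possible because the labels give no replicate numbers.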

Other observations

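Markers of other kidney cells were counted by the same test against control. Among all genes tested, 8.33% rose and 6.27% fell at 4 h after Dps, and 22.9% and 22.7% after MnDps. At 24 h the shares were 9.64% and 10.4% after Dps, and 4.93% and 8.39% after MnDps. In lists this short, the counts are not read as a result about a cell type. Of 5 macrophage markers, 4 rose at 24 h after Dps and 3 after MnDps, and at 4 h 1 fell after Dps and 2 after MnDps. Their summed level was 107 to 128 CPM in controls, 87.2 to 97.4 in Dps 4 h, 85.7 to 93.8 in MnDps 4 h, 153 to 168 in Dps 24 h and 158 to 163 in MnDps 24 h, so that both 24 h groups lay above the controls and both 4 h groups below. Of 5 thick ascending limb markers, 1 fell at 4 h and 1 at 24 h after Dps, and 2 at each time after MnDps, with summed levels of 3880 to 5010 CPM in controls and 2670 to 2970 in MnDps 24 h. Of 5 pericyte and smooth muscle markers, none was called at 4 h after Dps, and 2 rose and 1 fell at 24 h. After MnDps 1 fell at 4 h and 1 rose at 24 h. Of 3 tested neutrophil markers, all 3 rose at 4 h after each protein, and of 8 adipocyte markers 3 rose at 4 h after Dps, 2 after MnDps and 1 at 24 h after Dps.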
